A study of Homo sapiens with 4 samples.

Results

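The genes described here encode the glucose transporter and the glycolytic enzymes of HCT116 cells, a human colon cancer line. They were taken by symbol: SLC2A1, HK1, HK2, PFKP, ALDOA, TPI1, GAPDH, PGK1, ENO1 and LDHA. All 10 were found among the 20812 amplicon targets of the series, each with 1 target. Messenger RNA was counted by targeted amplicon sequencing in 4 groups, formed by 2 lines and 2 treatments. The lines were wild type HCT116 and HCT116 with the genotype hIDO1 overexpressing, called IDO1 cells below and IDO1 line in the plots. IDO1 is an enzyme that starts the breakdown of tryptophan to kynurenine. Cells of each line were kept for 24 h with 1 mM indole, a bacterial product of tryptophan, or with DMF, the solvent. How IDO1 was introduced, and whether the line is 1 clone, is not given in the sources used here.

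Glycolysis turns glucose into pyruvate in the cytosol and yields ATP without oxygen. Glucose enters through carriers of the SLC2A family, hexokinase traps it as a phosphate, and phosphofructokinase commits it to the pathway. Aldolase splits the sugar and triose phosphate isomerase interconverts the trioses. The enzymes after them oxidise the trioses and form ATP. Lactate dehydrogenase then regenerates the cofactor that lets the flow go on. Tumour cells often run this pathway fast, and many of its genes are known targets of the hypoxia factor HIF1 and of MYC.

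Each group was 1 library, so a difference between 2 libraries has no replicate check and no p-value. Wild type cells gave 22673148 reads with DMF and 18283862 with indole, and IDO1 cells gave 22736172 and 19069730. The IDO1 target had 0 and 2 reads in the former pair and 3451 and 2440 in the latter. Wild type with indole lay far from the other 3 libraries, with a score of 32.6 on the first principal component (73.0% of the variance) against -3.69, -13.6 and -15.3. Of 12 colon epithelial markers, 6 reached 10 CPM in every library, among them EPCAM and CDH1, while CDX1 and GPA33 had no reads. CPM, the usual library-size scale of read counts, is given here and below after scaling by the trimmed mean of M values (TMM), and intervals in parentheses are 95% intervals of counting error only. PCR efficiency differs between targets, so levels are read between libraries, and ranks and shares below describe reads, not amounts of RNA of one gene against another.

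The main pattern lay in wild type cells with indole. HK2, the inducible hexokinase, and the 6 enzymes from aldolase to lactate dehydrogenase had their lowest level of the 4 libraries there, between 1.51-fold and 1.99-fold below wild type with DMF. SLC2A1, the main glucose carrier of most cultured cells, HK1, the housekeeping hexokinase, and PFKP, the platelet-type phosphofructokinase, did not share this. In IDO1 cells, the levels with indole and with DMF were close for all 10 genes, and TPI1 had the largest ratio, 1.26-fold higher with indole (1.23 to 1.29). The plot of levels by library shows each gene on its own scale.

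**Figure D1:**
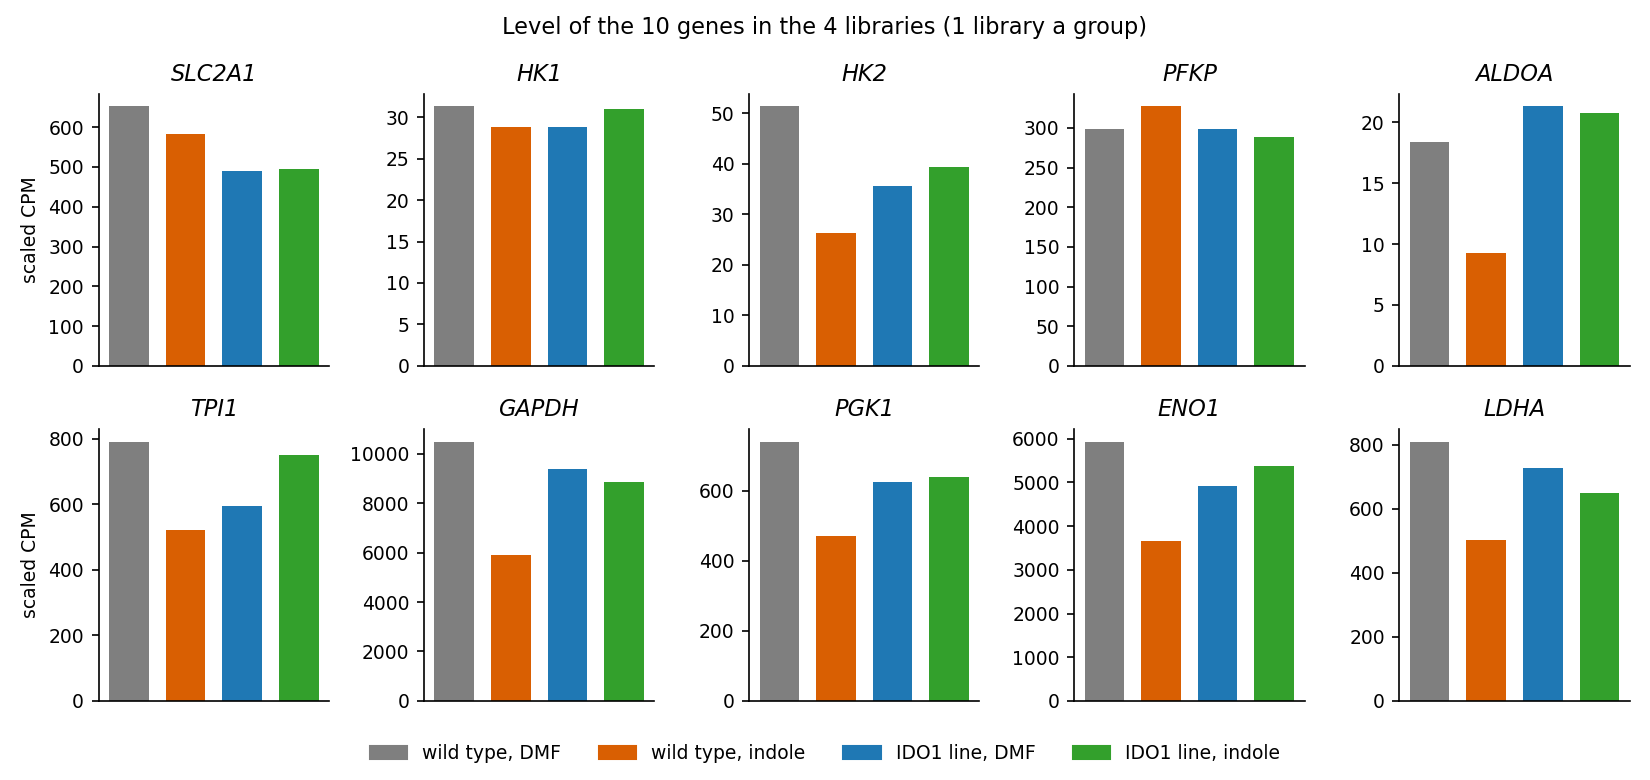
Scaled CPM (y axis, linear, from 0) of the 10 genes in the 4 libraries, 1 bar per library and 1 panel per gene. In wild type with indole the HK2, ALDOA, TPI1, GAPDH, PGK1, ENO1 and LDHA bars are the lowest of their panels, while PFKP is at its highest there with 327 CPM.

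Of the 10 genes, 4 have a single transcription start in RefSeq (GRCh38.p14). The 250 bases before that start are shown for them. Of the 4, 3 were at least 1.5-fold lower in wild type with indole and SLC2A1 was 1.12-fold lower. Capitals mark ACGTG or GCGTG on either strand, the 2 forms of the core of the HIF1 response element. ACGTG, but not GCGTG, lies within the E-box CACGTG, which factors such as MYC and ChREBP bind.
ENO1, chr1:8878687-8878936, minus strand: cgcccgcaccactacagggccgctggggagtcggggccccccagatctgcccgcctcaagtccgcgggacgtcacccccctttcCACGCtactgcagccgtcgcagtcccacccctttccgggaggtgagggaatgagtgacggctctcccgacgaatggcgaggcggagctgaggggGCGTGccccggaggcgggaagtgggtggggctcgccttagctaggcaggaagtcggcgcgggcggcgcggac
GAPDH, chr12:6535014-6535263, plus strand: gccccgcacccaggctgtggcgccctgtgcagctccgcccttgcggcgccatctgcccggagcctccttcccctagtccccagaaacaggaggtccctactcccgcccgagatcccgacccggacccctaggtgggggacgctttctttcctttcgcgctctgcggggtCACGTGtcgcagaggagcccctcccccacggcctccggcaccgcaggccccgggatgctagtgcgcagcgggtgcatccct
PGK1, chrX:78103998-78104247, plus strand: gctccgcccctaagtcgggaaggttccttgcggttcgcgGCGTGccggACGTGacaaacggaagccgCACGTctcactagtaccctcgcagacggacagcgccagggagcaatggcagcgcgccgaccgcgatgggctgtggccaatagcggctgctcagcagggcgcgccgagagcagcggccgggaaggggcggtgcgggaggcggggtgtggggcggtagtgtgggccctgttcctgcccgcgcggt
SLC2A1, chr1:42958869-42959118, minus strand: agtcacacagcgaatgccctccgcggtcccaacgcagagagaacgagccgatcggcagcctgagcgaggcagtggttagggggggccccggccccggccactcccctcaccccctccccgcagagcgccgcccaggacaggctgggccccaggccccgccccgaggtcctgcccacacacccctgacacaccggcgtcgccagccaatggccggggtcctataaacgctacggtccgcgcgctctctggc
The ENO1 stretch has 2 marked sites, PGK1 has 3 and GAPDH has 1, which is an E-box, and these letters are not in the SLC2A1 stretch. Among all 35116 RefSeq windows of that length, 43.2% hold ACGTG or GCGTG and 6.34% hold CACGTG. Over the 24 windows of all 10 genes, 14 hold ACGTG or GCGTG and 4 hold CACGTG. At least 1 window with ACGTG or GCGTG was found for 9 of the 10 genes, HK1 and PFKP included, which were not among those at least 1.5-fold lower. The 10 genes have 1 to 7 windows each, so this count by gene cannot be set against the 43.2% of windows. The share of all genes with such a window was not computed. These matches describe letters in a window, and no binding was measured. A link between the letters and the indole ratios was not tested, and SLC2A1 is a single gene with a single window.

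At the uptake step the lines differed more than the treatments did. SLC2A1 stood at 652 CPM in wild type with DMF, 583 with indole, 489 in IDO1 cells with DMF and 494 with indole. Both wild type libraries were thus above both IDO1 libraries. With indole it was 1.12-fold lower in wild type (1.09 to 1.15), a direction that turned with library totals in place of TMM, to a log2 ratio of 0.01. In IDO1 cells with DMF it was 1.33-fold lower than in wild type (1.30 to 1.37), and in indole 1.18-fold lower (1.15 to 1.21). Of the 10 genes, SLC2A1 alone was lower in IDO1 cells beyond counting error in both treatments.

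The hexokinases parted. HK1 stood at 31.3 CPM in wild type with DMF, 28.8 with indole, 28.8 in IDO1 cells with DMF and 31.0 with indole. None of its 4 ratios was outside counting error, and its indole ratio in wild type turned from -0.11 to 0.06 on the log2 scale with library totals. HK2 stood at 51.3, 26.2, 35.5 and 39.3 CPM in the same order, so wild type held both its highest and its lowest level. It was 1.95-fold lower with indole in wild type (1.76 to 2.18) and 1.11-fold higher with indole in IDO1 cells (1.00 to 1.22). Between the lines HK2 was 1.45-fold lower in IDO1 cells in DMF (1.32 to 1.58) and 1.5-fold higher in indole (1.34 to 1.68).

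PFKP, a subunit of the committing enzyme, had 298, 327, 299 and 289 CPM in wild type with DMF, wild type with indole, IDO1 cells with DMF and IDO1 cells with indole. It was 1.10-fold higher with indole in wild type (1.06 to 1.14), and it was higher under each of the 4 scalings. With library totals its log2 ratio there was 0.31 in place of 0.14. PFKP in IDO1 cells with DMF was level with wild type, at 1.00-fold (0.969 to 1.04).

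ALDOA, the aldolase of muscle and most growing cells, had the widest spread of the 10 genes and the fewest reads. It had 392 reads in wild type with DMF, 179 with indole, 485 in IDO1 cells with DMF and 399 with indole, or 18.4, 9.25, 21.3 and 20.8 CPM. ALDOA was 1.99-fold lower with indole in wild type (1.67 to 2.39), while in IDO1 cells the ratio was within counting error, at 0.981 (0.857 to 1.12). In indole it was 2.25-fold higher in IDO1 cells than in wild type (1.88 to 2.70). Every ALDOA value rests on that single target.

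TPI1, which interconverts the triose phosphates, stood at 792 CPM in wild type with DMF, 523 with indole, 596 in IDO1 cells with DMF and 750.0 with indole. The order of its 2 treatments was opposite in the 2 lines. TPI1 was 1.51-fold lower with indole in wild type (1.48 to 1.55) and 1.26-fold higher in IDO1 cells. In DMF it was 1.33-fold lower in IDO1 cells than in wild type (1.30 to 1.36).

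GAPDH and ENO1 carried most of the reads of the pathway. GAPDH, which oxidises glyceraldehyde phosphate and often serves as a reference gene, had 10489 CPM in wild type with DMF, 5917 with indole, 9362 in IDO1 cells with DMF and 8867 with indole. It ranked 5 among all targets in 3 libraries and 7 in wild type with indole. ENO1, the enolase of most tissues, had 5935, 3670.5, 4919.6 and 5369 CPM in that order. With indole, GAPDH was 1.77-fold lower in wild type (1.76 to 1.79) and 1.06-fold lower in IDO1 cells (1.05 to 1.06). For ENO1 the ratios were 1.62-fold lower in wild type (1.60 to 1.63) and 1.09-fold higher in IDO1 cells (1.08 to 1.10). The 10 genes together took 1.86% of all reads in wild type with DMF, 1.28% with indole, and 1.72% in both libraries of IDO1 cells. GAPDH and ENO1 made up 79.5% to 83.5% of these reads. Processed pseudogenes of GAPDH, ENO1, PGK1, LDHA, TPI1, ALDOA and PGAM1 could share reads with these targets, so their values are uncertain to that extent.

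PGK1, the first of the pathway's ATP-forming enzymes, stood at 739.8 CPM in wild type with DMF, 471 with indole, 624 in IDO1 cells with DMF and 640.1 with indole. LDHA, the muscle-type lactate dehydrogenase subunit, stood at 809.5, 501, 726 and 648 CPM. Both were highest in wild type with DMF and lowest in wild type with indole. PGK1 was 1.57-fold lower with indole in wild type (1.53 to 1.61) and 1.03-fold higher in IDO1 cells (1.00 to 1.05). LDHA was lower with indole in both lines, 1.62-fold in wild type (1.58 to 1.66) and 1.12-fold in IDO1 cells (1.09 to 1.15). With GAPDH, LDHA was the only gene of the 10 that was lower with indole in both lines beyond counting error in each.

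Set against all genes, the 10 lay low in the wild type response to indole. Of 8679 genes with at least 10 CPM in 1 of the 2 libraries, 9.72% were at least 1.5-fold lower with indole, and 7 of the 10 genes were, namely HK2, ALDOA, TPI1, GAPDH, PGK1, ENO1 and LDHA. On the 2-fold rule none of the 10 was lower, against 1.54% of all genes, or higher, against 1.36%. None was at least 1.5-fold higher, against 7.09%. These ratios are on the log2 scale of CPM plus 1, and the 1.5-fold rule was chosen after the values were seen. The median log2 ratio of the 10 was -0.67, with a range from -0.94 to 0.14, and that of all genes was -0.04. Of the 10, 9 were below 0 against 53.8% of all genes, and 7 were with library totals. Abundant genes lay lower as a whole: of 310 genes with at least 500 CPM, 27.1% were at least 1.5-fold lower and their median was -0.32, while 5 of 6 of the 10 genes at that level were at least 1.5-fold lower. With library totals, the median of all genes moved from -0.04 to 0.13 and that of the 10 from -0.67 to -0.50, and 3 of the 10 were at least 1.5-fold lower against 4.93% of all genes. All 7 genes were lower with indole under each of the 4 scalings.

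In IDO1 cells the indole ratios of the 10 genes had a median of 0.03 on the log2 scale, with a range from -0.16 for LDHA to 0.33 for TPI1. None was at least 1.5-fold apart in either direction, against 0.434% of 8523 genes higher and 0.282% lower. At 2-fold these backgrounds were 0.0469% higher and 0.0352% lower. The median of all genes was -0.01. HK2 had the largest difference between the lines, its log2 ratio being 1.08 higher in IDO1 cells than in wild type. TPI1 differed by 0.93, ALDOA by 0.90 and ENO1 by 0.82, and PFKP differed the other way, by -0.18. The difference between the 2 responses could not be tested with 1 library a group.

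**Figure D2:**
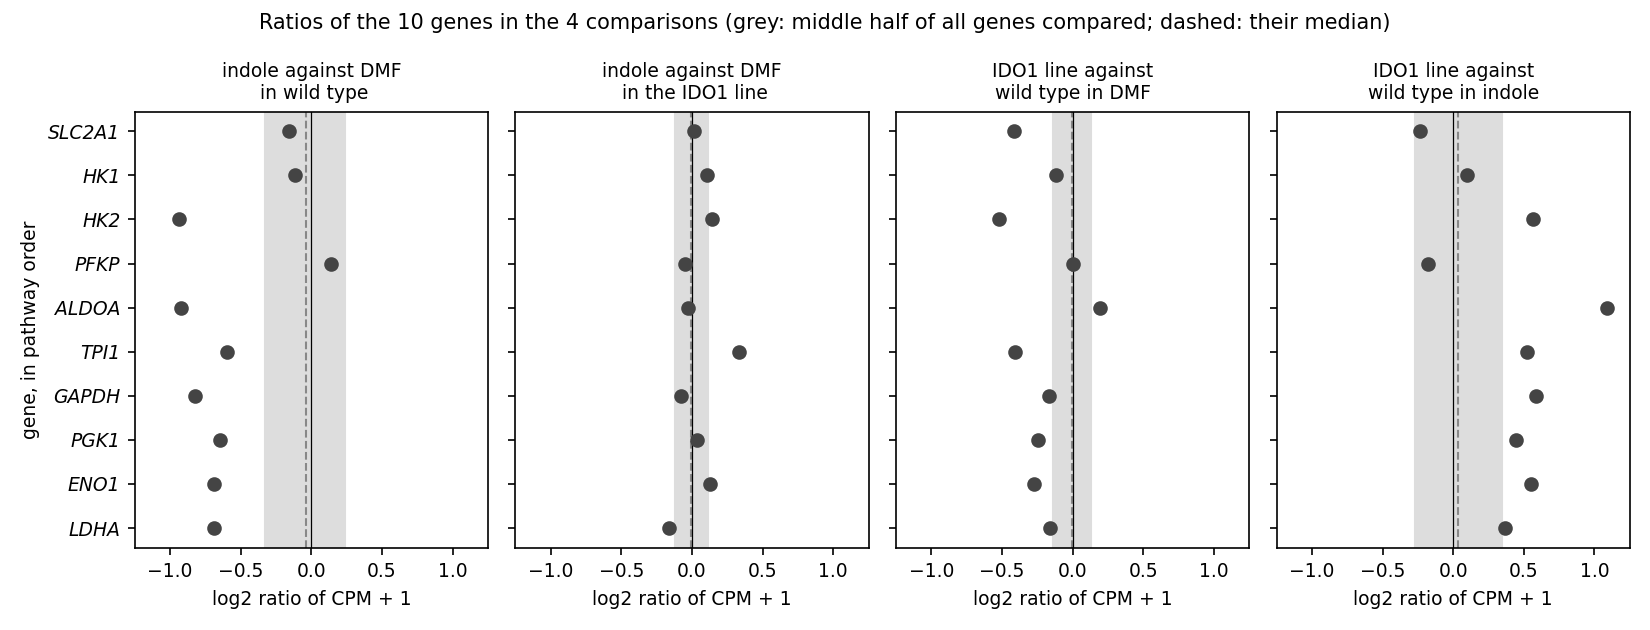
Log2 ratio of CPM plus 1 (x axis) for the 10 genes (y axis, in pathway order) in the 4 comparisons, with the range between the quartiles of all genes compared in grey and their median dashed. In wild type with indole 7 of the 10 points lie left of the grey band, at -0.60 or lower, and in IDO1 cells the points lie between -0.16 and 0.33.

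The lines were then compared in DMF, which asks what differed without indole. Of the 10 genes, 8 were below 0 on the log2 scale against 51.6% of all genes, with a median of -0.20 against -0.01 over all 8500 genes. HK2 was lowest with -0.52, and SLC2A1 and TPI1 each had -0.41. ALDOA, at 0.20, and PFKP, at 0.00, were the exceptions, and PFKP changed sign with the median-of-ratios scaling, to -0.0007. None was at least 1.5-fold lower, against 1.26% of all genes, or higher, against 0.894%. At 2-fold 0.165% of all genes were lower and 0.282% higher. Among 303 genes at 500 CPM or more, 76.2% were below 0 and the median was -0.13. The 6 of the 10 genes at that level were all below 0, with a median of -0.26. With library totals the median of the 10 was -0.11 and that of all genes 0.09.

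In indole, 8 of the 10 genes were higher in IDO1 cells than in wild type and 2 were lower, against 47.2% of all genes lower. Their median log2 ratio was 0.48 against 0.03 over 8765 genes. Among 298 genes at 500 CPM or more, 36.9% were lower and the median was 0.15. Of the 6 of the 10 genes at that level, 1 was lower. ALDOA was the one gene at least 1.5-fold higher on this scale, against 11.6% of all genes, and the one at least 2-fold higher, against 2.28%. None was at least 1.5-fold lower, against 9.75%, or 2-fold lower, against 2.22%. GAPDH had 0.58, HK2 0.56 and ENO1 0.55. SLC2A1 and PFKP were lower, with -0.24 and -0.18. This comparison and the wild type response to indole share the library of wild type with indole. The comparisons that do not use it are indole against DMF in IDO1 cells and the lines in DMF, and the largest absolute log2 ratios of the 10 genes in these were 0.33 and 0.52.

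Genes outside the pathway also separated the lines. A list of 10 genes known from embryonic kidney lines was drawn up with earlier results of these data known, so its direction tests nothing. All 10 were higher in both IDO1 libraries. Their summed levels were 2.02 and 2.07 CPM in wild type and 62.5 and 62.6 CPM in IDO1 cells. Of them IRS4, an insulin receptor substrate, was read 1 time and 0 times in wild type, and 360 and 249 times in IDO1 cells. Of 10 fibroblast and mesenchymal markers 4 were higher in IDO1 cells in both treatments, while COL1A2 and DCN had no reads. Their sums were 98.6 and 110.2 CPM in wild type against 152 and 154 CPM. COL1A1, the largest part of the wild type sums, was lower in IDO1 cells, with 85.7 and 97.1 against 76.6 and 73.8 CPM. VIM had 4.14 and 2.84 CPM in wild type against 53.7 and 58.5 in IDO1 cells. SPARC had 1.13 and 1.4 CPM against 14.0 and 12.9. The part of all these genes in the differences between the lines in glycolysis genes was not tested. The colon epithelial markers summed to 4890.1 and 4562 CPM in wild type and 3568 and 3901 CPM in IDO1 cells. Leukocyte markers summed to at most 10.3 CPM in any library, and PTPRC had no reads. Fewer cells of a type and less RNA per cell cannot be told apart in these bulk samples.

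Additive fits used all 4 libraries at once, with a term for indole and a term for the line. For indole, 0 of 13122 genes (0.0%) passed an adjusted p of 0.05 by edgeR's quasi-likelihood test, while 448 had an unadjusted p under 0.05, none of them among the 10 glycolysis genes. DESeq2 passed 0 genes with 127 at an unadjusted p under 0.05. Library totals passed 6 genes, no filter on low counts 10 and a filter of 10 CPM in 2 libraries 5, again none of the 10. The log2 fold changes of the 10 with indole ran from -0.49 for ALDOA (SE 0.263, adjusted p = 1.0) to 0.05 for PFKP (SE 0.242, adjusted p = 1.0). For the line, 322 of 13122 genes passed (2.45%), and none of the 10 did. ALDOA had the smallest p of the 10, with a log2 fold change of 0.67 in IDO1 cells (SE 0.263, adjusted p = 0.302), higher in both treatments. SLC2A1 had -0.33 (SE 0.254, adjusted p = 0.760), lower in both treatments. With 1 residual degree of freedom, a gene whose indole response differs between the lines counts as noisy in these fits. No label says that the libraries are from separate cultures, so these p-values measure the spread between the samples only, and that may be technical.

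The other steps and isoenzymes of glycolysis were described from a list of 21 genes, of which 8 were compared in wild type. Their median log2 ratio with indole was -0.58. Of the 8, 7 lay below 0 against 53.8% of all genes, and 4 of these by 1.5-fold or more against 9.72%. With library totals 7 still lay below 0, but 2 by 1.5-fold or more, PGAM1 and ENO2. PGAM1, the mutase between PGK1 and enolase, went from 806 to 419 CPM and was 1.92-fold lower (1.87 to 1.98). GPI, which isomerises glucose phosphate ahead of phosphofructokinase, was 1.53-fold lower (1.5 to 1.56). ENO2, the neuronal enolase, was 1.78-fold lower (1.66 to 1.91) and LDHB, the heart-type lactate dehydrogenase subunit, 1.63-fold lower (1.58 to 1.69). The aldolase ALDOC was 1.46-fold lower (1.38 to 1.54). The other 3 stood nearer to 1. PFKL, the liver-type phosphofructokinase, was 1.16-fold lower (1.12 to 1.21), ENO3, the muscle enolase, 1.23-fold lower (1.04 to 1.46), and ADPGK, an ADP-dependent glucokinase, 1.14-fold higher (0.984 to 1.31). PKM, the pyruvate kinase, had 96 to 167 reads and stayed under 10 CPM, so it was not compared.

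In IDO1 cells the same 8 genes had a median of 0.04 with indole. None was at least 1.5-fold apart, against 0.434% of all genes higher and 0.282% lower. ALDOC and LDHB had the largest ratios, 1.30-fold (1.22 to 1.39) and 1.19-fold (1.16 to 1.22) higher with indole. Between the lines in DMF all 8 were below 0 with TMM, with a median of -0.22. So were 51.6% of all genes and 76.2% of genes at 500 CPM or more. GPI and LDHB turned with library totals, to 0.07 and 0.08. ALDOC was 1.87-fold lower in IDO1 cells (1.76 to 1.98), at 77.2 against 144 CPM. In indole LDHB was 1.92-fold higher in IDO1 cells (1.87 to 1.98) and PGAM1 1.69-fold higher (1.65 to 1.74). By the additive fits none of the 12 genes of the list that were tested passed for indole, against 0.0% of all genes, or for the line, against 2.45%.

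**Figure D3:**
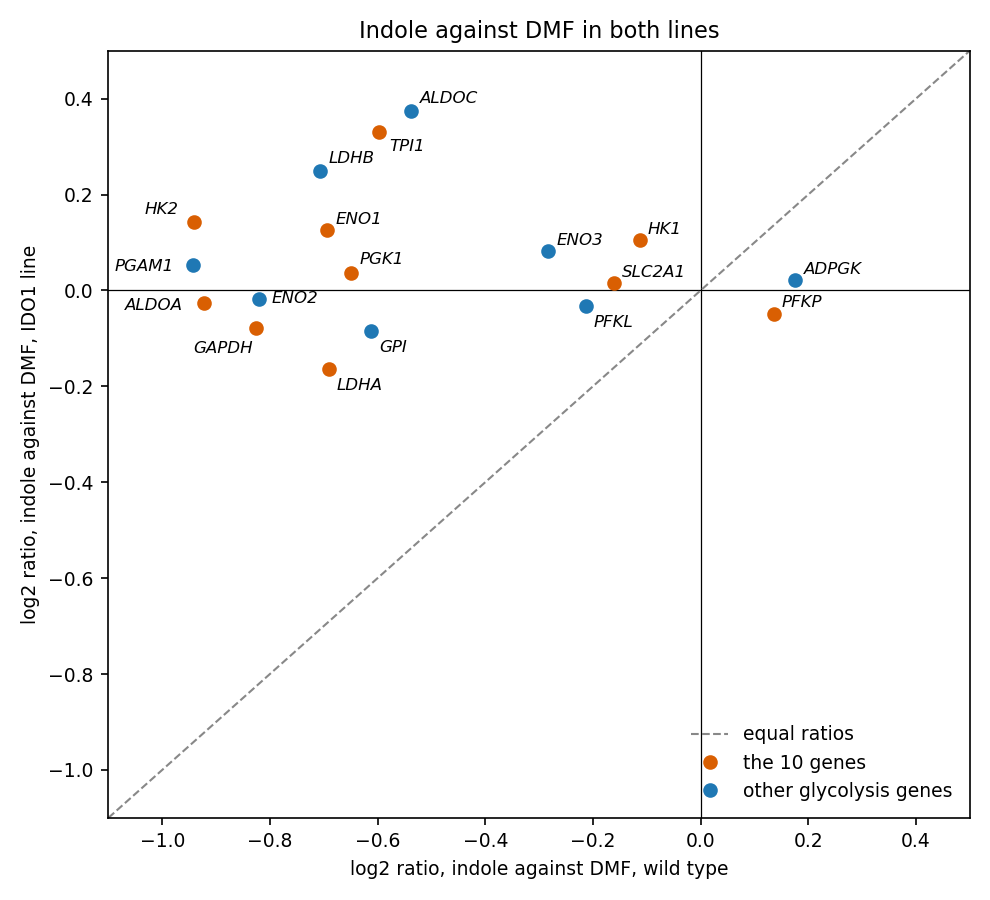
Log2 ratio of indole to DMF in wild type (x axis) and in IDO1 cells (y axis) for the 10 genes and the 8 other glycolysis genes compared, on CPM plus 1, with the line of equal ratios dashed. The points spread along the x axis from -0.94 to 0.18 and along the y axis from -0.16 to 0.37, and HK2 and PGAM1 lie farthest left.

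Shares of isoenzymes within a library need no scaling between libraries. HK2 took 62.1% (59.8 to 64.4) of hexokinase HK1 and HK2 reads in wild type with DMF and 47.7% (44.6 to 50.7) with indole. In IDO1 cells it took 55.3% (52.7 to 57.8) with DMF and 55.9% (53.2 to 58.6) with indole. The 4 values show a lower HK2 share with indole in wild type and overlapping intervals in IDO1 cells. PFKP took 52.3% (51.4 to 53.2) of the reads of PFKP, PFKL and PFKM in wild type with DMF and 58.2% (57.3 to 59.2) with indole, and 55.8% and 55.5% in IDO1 cells. PFKM, the muscle type, took at most 0.340%.

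Lactate dehydrogenase differed in the other line. LDHA took 60.6% (60.1 to 61.2) of LDHA and LDHB reads in wild type with DMF and 60.9% (60.1 to 61.7) with indole. In IDO1 cells its share was 58.2% (57.6 to 58.8) with DMF and 51.1% (50.5 to 51.8) with indole. The intervals overlap in wild type and stand apart in IDO1 cells, where LDHA was lower and LDHB higher with indole. ALDOA took 11.3% (10.3 to 12.4) and 8.53% (7.37 to 9.81) of aldolase reads in wild type with DMF and indole, and 21.6% (19.9 to 23.3) and 17.2% (15.7 to 18.8) in IDO1 cells. ENO2 took 1.86% of enolase reads in wild type with DMF and 1.56% to 1.72% in the other 3 libraries. SLC2A3, a high-affinity glucose carrier, took at most 0.853% of its reads with SLC2A1.

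**Figure D4:**
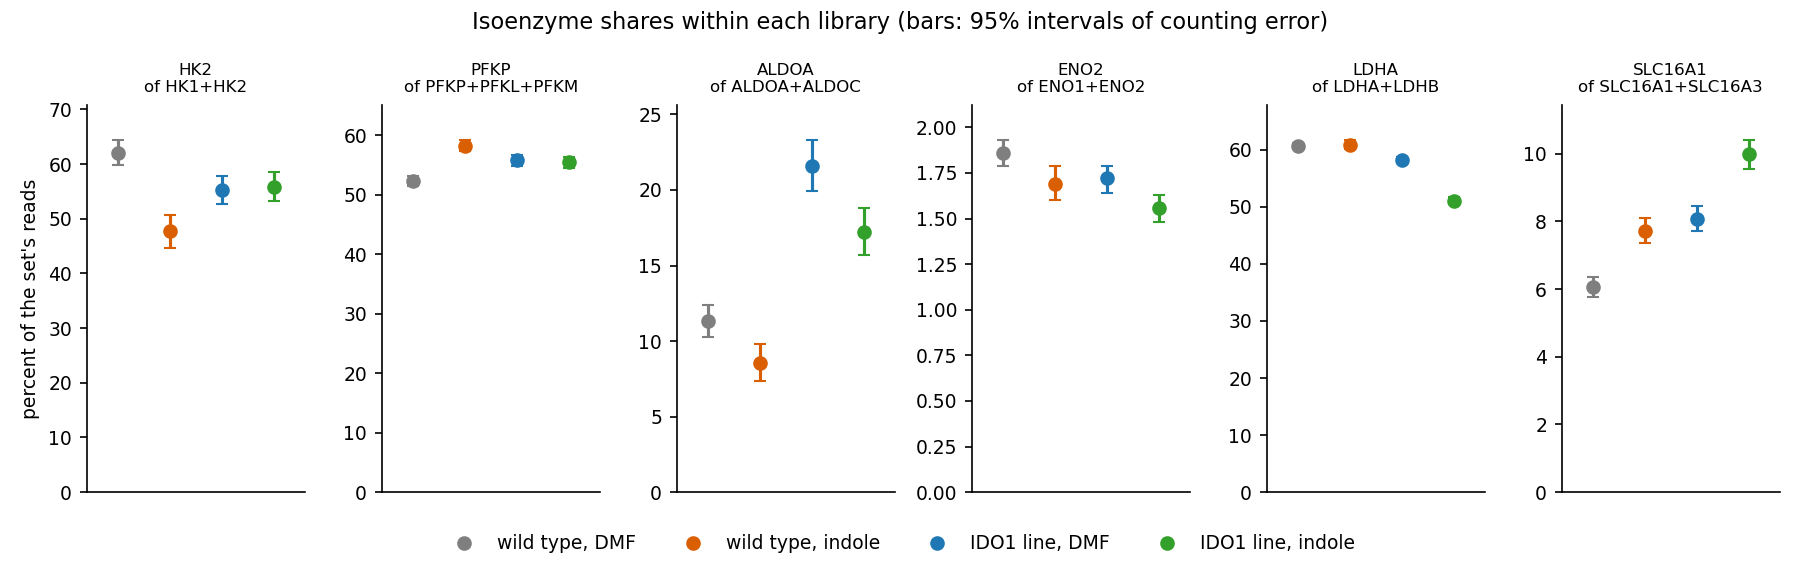
Share of 1 isoenzyme among the reads of its set (y axis, percent, from 0) in each of the 4 libraries, with bars for 95% intervals of counting error. HK2 is lowest in wild type with indole at 47.7%, LDHA is lowest in IDO1 cells with indole at 51.1%, and the lactate carrier SLC16A1 goes from 6.06% in wild type with DMF to 9.99% in IDO1 cells with indole.

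Lactate leaves the cell through SLC16A1 and SLC16A3, the monocarboxylate carriers, and pyruvate enters mitochondria to be used by pyruvate dehydrogenase. SLC16A1 took 7.72% (7.35 to 8.10) of the reads of both carriers in wild type with indole and 8.07% (7.72 to 8.44) in IDO1 cells with DMF. Of 13 compared genes of pyruvate and lactate transport and entry, 9 were below 0 with indole in wild type against 53.8% of all genes, with a median of -0.31 that became -0.14 with library totals. PDHB and DLAT, subunits of pyruvate dehydrogenase, were 2.02-fold (1.62 to 2.54) and 1.62-fold (1.49 to 1.77) lower. PDK4, a kinase that switches this complex off, was 1.63-fold higher (1.41 to 1.89). PDK2, another such kinase at a higher level, went the other way, from 116 to 93.5 CPM. Of the other subunits, PDHA1 went from 107 to 73.3 CPM and DLD from 77.1 to 59.8 CPM. PDHX rose from 26.3 to 31.3 CPM. In IDO1 cells PDHB and DLAT were 1.45-fold (1.20 to 1.74) and 1.33-fold (1.24 to 1.42) higher with indole, and PDK4 had a ratio of 0.852 (0.706 to 1.03). In indole, DLAT and PDHB were 2.14-fold and 2.21-fold higher in IDO1 cells than in wild type, and PDK4 was 2.26-fold lower.

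Genes that control the flow had no common direction. Of 11 compared in wild type with indole, 4 were above 0 and 7 below, with a median of -0.02 that became 0.15 with library totals. ARRDC4, an arrestin-like relative of TXNIP that curbs glucose uptake, was 2.16-fold higher (1.77 to 2.63). MLXIPL, the glucose-sensing factor ChREBP, was 1.27-fold higher (1.21 to 1.34) and its partner MLX 1.56-fold lower (1.48 to 1.64). HIF1A, ARNT and MYC of the same list stood at 60.5, 86.2 and 719.6 CPM in wild type with DMF. With indole they stood at 59.5, 77.8 and 685 CPM there. In IDO1 cells they stood at 63.8, 82.3 and 554 CPM with DMF and 68.6, 79.7 and 662 CPM with indole. Any part of these factors in the ratios of the 10 genes was not tested. In indole ARRDC4 was 2.23-fold lower (1.81 to 2.75) and MLXIPL 1.85-fold lower (1.74 to 1.96) in IDO1 cells than in wild type. TXNIP, which curbs glucose uptake through SLC2A1, was read 27 times in IDO1 cells with DMF and 16 times with indole, and 0 times in either wild type library. Against a floor of 3 reads in a wild type library, its ratio was 8.39 in DMF and 5.39 in indole, before counting error in its own reads. Set against the 0 reads counted in wild type, the lower 95% limits of counting error were 6.37 and 3.9. TXNIP rose with the line by edgeR's quasi-likelihood test (adjusted p = 0.00146), at 1.18 and 0.836 CPM. It was the only gene of the 69 pathway genes outside the 10 that passed for the line, against 2.45% of all genes tested. For indole 0 passed, against 0.0%. At its levels TXNIP was left out of the fit with at least 10 CPM in 2 libraries.

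Side branches of the pathway were described in the same way. In the pentose phosphate pathway 7 of 8 genes were below 0 with indole in wild type against 53.8% of all genes, with a median of -0.30. With library totals 5 were, and the median was -0.12. PGD and PGLS, both of its oxidative arm, were 1.46-fold lower (1.41 to 1.5 and 1.30 to 1.65), and H6PD, which starts the same reactions in the endoplasmic reticulum, was 1.88-fold higher (1.63 to 2.17). PCK2, the mitochondrial enzyme that makes phosphoenolpyruvate, was 2.41-fold higher with indole in wild type (2.20 to 2.64), going from 31.6 to 76.3 CPM. In IDO1 cells PCK2 had 31.6 and 29.1 CPM. G6PC3, a glucose phosphatase, was 1.69-fold lower with indole in wild type (1.60 to 1.80) and 1.24-fold lower in IDO1 cells (1.18 to 1.31). Of 10 glycogen genes 5 were above and 5 below 0 in wild type with indole, with a median of -0.03 that became 0.14 with library totals. GBE1, the branching enzyme, was 1.65-fold lower there (1.47 to 1.87), and PYGB, a glycogen phosphorylase, 1.27-fold higher (1.22 to 1.32). PHKA1, a subunit of the kinase that activates phosphorylase, had a ratio of 1.18 (0.963 to 1.45). Of the 11 glucose carriers listed beside SLC2A1, SLC2A6 alone was above 10 CPM. It was 1.40-fold lower with indole in wild type (1.27 to 1.54) and 1.52-fold lower in IDO1 cells in DMF (1.38 to 1.67).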

How the data were processed

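Reads were counted in 4 libraries of HCT116 cells, 1 per group. Per the labels' protocols, libraries came from an AmpliSeq human gene expression kit, which amplifies a short target per gene. The deposited values are raw counts of reads per target, per the file headers, and were not normalized by the authors. Per the submitters' processing notes the genome was hg19. Aligner and counter are not given in the sources used here. Each group had 2 replicates per the series' design text, yet a file holds 1 count column, and whether replicates were summed is not stated.

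Counts were scaled by TMM to CPM. In each of 4 comparisons, genes reaching 10 CPM in 1 of the 2 libraries got a log2 ratio of CPM with a pseudocount of 1, without a test. This understates changes of low genes. Folds have no pseudocount, and their intervals, like those of shares, are exact Clopper-Pearson 95% intervals. Amplified reads carry no molecular identifiers and are not independent molecules, so intervals and floors hold counting error only. The floor of 3 reads is 0.131 to 0.157 CPM. Additive fits of line and treatment used edgeR 4.0.16 (TMM, filterByExpr, quasi-likelihood test, Benjamini-Hochberg adjustment over all genes tested). The SE was back-calculated from the fold change and the F statistic. DESeq2 1.42.0, other scalings, pseudocounts and minimums were alternatives. The scripts were tested on simulated data. Near copies (processed pseudogenes of GAPDH, PGK1, ENO1, LDHA, TPI1, ALDOA and PGAM1) may share reads with these targets, so their values are uncertain.

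The 10 genes and the lists were chosen with earlier results of these data known. Genes named beside the 10 were, by rule, all other glycolysis genes at 10 CPM or more, the 3 genes of each further list with the largest absolute log2 ratio in any comparison, genes past an additive threshold, the genes of the isoenzyme shares and markers. PKM, HIF1A, ARNT, MYC, PDHA1, DLD, PDHX and PDK2 were named after their values were seen. TIGAR was matched through a RefSeq synonym, and PDP1 was not analysed here. Promoter sequences are from RefSeq, build GRCh38.p14, and all 10 symbols matched.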

Additional observations from a re-analysis of the deposited data

Results flagged for a closer look

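For 4 of the 10 genes the indole ratio had opposite directions in the 2 lines, each beyond counting error and under all 4 scalings. The share of all genes with such a pair of ratios was not computed. Of all genes, 53.8% were below 0 with indole in wild type and 51.2% in IDO1 cells. HK2 had a log2 ratio of -0.94 in wild type and 0.14 in IDO1 cells, and PGK1 had -0.65 and 0.0371, both just beyond counting error in IDO1 cells. TPI1 had a log2 ratio of -0.60 in wild type and 0.33 in IDO1 cells, and ENO1 had -0.69 in wild type and 0.13 in IDO1 cells. The PGK1 ratio in IDO1 cells lay between the quartiles of all genes there, -0.1185 and 0.1101. The difference between the lines was not tested, since each group was 1 library.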

How the results depend on the processing

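Without replicates there was no test of a pair of groups, and the values for wild type with indole rest on the library that stood apart. No paired analysis was possible because each group had 1 library and its label carries no replicate number. Leaving out a library left no residual degree of freedom and was not run. The count of 0 of the 10 genes passing an additive fit held under all alternatives, with a smallest adjusted p of 0.999 to 1.0 for indole and of 0.166 to 0.999 for the line. Genes passing for the line numbered 322, and 384 with library totals, 418 with no filter, 76 with at least 10 CPM in 2 libraries and 88 by DESeq2. With library totals the median log2 ratio of the 10 genes was -0.50 for indole in wild type, -0.11 for the lines in DMF and 0.40 for the lines in indole. Without the 10 most abundant genes in the totals these were -0.50, -0.13 and 0.39. Both scalings left 3 genes at least 1.5-fold lower with indole in wild type instead of 7, because the scaling moved every ratio of that comparison by about the same amount. In indole, IDO1 cells had 2 genes at least 1.5-fold higher with median-of-ratios scaling, and 0 with a minimum of 50 or of 500 CPM, which leaves ALDOA out. SLC2A1 turned to 0.0123 and 0.0112 for indole in wild type with the 2 kinds of totals, and in the additive indole fit to 0.0136 with library totals. In that fit HK1 turned to -0.0044 with no filter and -0.0016 with DESeq2. For the line HK1 turned to 0.0016 with library totals and HK2 to -0.0035 with at least 10 CPM in 2 libraries. Among pathway lists with at least 3 genes compared, the medians that changed sign were, for indole in wild type, flux control (0.15 with both kinds of totals) and glycogen (0.14 with both), and, for the lines in DMF, flux control (0.0161 with library totals) and the pentose phosphate pathway (0.0914, and 0.068 without the 10 most abundant genes). The 2 gluconeogenesis genes compared turned from -0.05 to 0.04 and 0.02 there. Without the 10 most abundant other genes in the total, the share of reads of the 10 was 2.10%, 1.44%, 1.91% and 1.92%. The 1.5-fold rule and the minimum of 500 CPM were chosen after the data were seen.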

Other observations

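Targets of near copies of the 10 genes had few reads. TPI1P2 and TPI1P3, pseudogenes of TPI1, had 8 to 14 and 17 to 49 reads over the 4 libraries. GAPDHS, the sperm form of GAPDH, had 5 to 12 reads, and PGK2, the testis form of PGK1, had 0 or 1. HKDC1, a hexokinase relative below 10 CPM, was read 18 times with DMF and 61 times with indole in wild type, against 28 and 38 times in IDO1 cells. SLC2A12, another low glucose carrier, was read 58 and 112 times in wild type, against 34 and 38 times in IDO1 cells. HKDC1 and SLC2A12 were chosen after their values were seen.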
